A study of Homo sapiens with 12 samples.

Results

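The splicing factors described here are 51 listed genes: SR proteins, their TRA2 relatives, hnRNP proteins, proteins of the small nuclear ribonucleoproteins (snRNPs), the SF3 complex, U2AF, the CLK kinases, RBM25 and RBM39. They were found by symbol among the probe sets of an Affymetrix array. A probe set is a group of short probes that reads part of the transcripts of a gene. Of the 51 genes, 48 had at least 1 probe set that names no other gene, and all 48 passed the filter on low values (log2 over 4 in at least 3 arrays), among 10574 genes tested in all. SRSF2, SRSF9 and HNRNPH2 had only probe sets that name several genes, so no value is given for them.

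HK-2 cells, a line of human proximal tubule epithelium immortalised with papillomavirus genes, were grown in a medium with epidermal growth factor, insulin, transferrin, selenite and hydrocortisone. Cultures received a high dose of Kbr or the control vehicle, and RNA was taken after 24 h or 48 h. There were thus 4 groups, of 3 biological replicates and 3 arrays each: control and Kbr at 24 h, and control and Kbr at 48 h. No concentration of Kbr is given in the sources used here, and the agent is called by its label throughout. The small number of arrays limits the precision. Values are log2 GCRMA intensities, a scale on which a difference of 1 is a 2-fold difference.

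All 6 epithelial markers fixed for the check were above the filter (EPCAM between 12.72 and 13.45 in the 12 arrays), while 0 of 9 proximal tubule markers were, LRP2, CUBN and AQP1 among those below it. Of 4 fibroblast markers 3 were above the filter (DCN, LUM and COL1A1), and none of the endothelial or leukocyte markers with a value was. The summed level of the fibroblast markers was 12.36 to 12.88 in control 24 h, 11.41 to 11.83 in Kbr 24 h, 12.27 to 12.34 in control 48 h and 10.16 to 10.59 in Kbr 48 h (log2 of the summed linear values). That of the epithelial markers was 14.63 to 14.88, 14.19 to 14.41, 14.48 to 14.79 and 14.13 to 14.30 in the same order, so the sums of both lists were lower under Kbr. Among the epithelial markers KRT18 went the other way at 48 h, with a mean of 13.03 in Kbr and 12.60 in control. The array's control probe sets for 18S ribosomal RNA were higher under Kbr by 0.49 at 24 h and 0.51 at 48 h. Kbr 48 h replicate 3 stood apart, with a root mean square deviation from its group of 0.29 against 0.16 to 0.23 in the other 11 arrays. The part of these differences in the results below was not tested.

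Splicing removes introns from pre-mRNA in the spliceosome, which is built from snRNPs. U1 snRNP recognises the 5′ splice site, U2AF and the SF3 complex of U2 snRNP mark the 3′ splice site and the branch point, and the U4/U6.U5 tri-snRNP then joins to form the catalytic machine. A rare class of introns is removed by a separate minor spliceosome, which uses U11 and U12 snRNPs. SR proteins bind exons and mostly promote their inclusion, hnRNP proteins often oppose them, and CLK kinases phosphorylate SR proteins. Many of these genes produce alternative mRNAs, some with retained introns or with exons that send the mRNA to decay, so probe sets for different parts of a gene can read different mRNAs.

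The promoters of SNRNP48 and RBM25 are shown, genes with several tested probe sets that were each called higher under Kbr at both times. SNRNP27 and TRA2B also met this condition, and their promoters are not printed. The windows are 300 bases around the annotated start, from RefSeq (build GRCh38.p14), both on the plus strand, at chr6:7589948-7590247 for SNRNP48 and chr14:73058284-73058583 for RBM25. Capitals mark matches on either strand to 9 motifs.
SNRNP48: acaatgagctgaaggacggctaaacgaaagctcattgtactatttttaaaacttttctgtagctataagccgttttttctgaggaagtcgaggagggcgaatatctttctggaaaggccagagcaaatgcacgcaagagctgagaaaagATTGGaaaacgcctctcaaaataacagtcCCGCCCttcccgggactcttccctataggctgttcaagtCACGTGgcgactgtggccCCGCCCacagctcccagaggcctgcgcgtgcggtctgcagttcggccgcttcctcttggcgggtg
RBM25: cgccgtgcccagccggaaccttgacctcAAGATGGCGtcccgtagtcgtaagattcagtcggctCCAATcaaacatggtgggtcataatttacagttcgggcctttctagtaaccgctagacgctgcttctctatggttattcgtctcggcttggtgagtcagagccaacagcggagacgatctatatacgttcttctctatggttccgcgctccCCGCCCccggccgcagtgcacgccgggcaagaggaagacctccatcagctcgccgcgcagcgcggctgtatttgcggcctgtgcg
The capitals are matches to the GC box GGGCGG, the CCAAT box, the E-box CACGTG and the YY1 motif AAGATGGCG, and no match overlaps another. Of the 48 measured genes, 46 had an entry in the promoter table. The GC box was in 33 of these 46 windows (71.7%) and in 44.6% of the 27305 promoter windows of the same length. The CCAAT box was in 18 of 46 (39.1%) against 35.7%, the E-box in 11 (23.9%) against 7.43%, and the ETS motif CCGGAAG in 12 (26.1%) against 10.7%. The YY1 motif was in 3 (6.52%) against 1.85%, the NRF1 motif in 9 (19.6%) against 6.28%, and the antioxidant response element core TGACNNNGC in 10 (21.7%) against 13.6%. The TATA box TATAAA was in 5 (10.9%) against 11.95%, and the cyclic AMP response element TGACGTCA in 1 (2.17%) against 1.98%. These shares describe letters in a window and were not tested.

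At 24 h of Kbr, 16 of the 48 splicing factors were called higher than in control and 1 lower. A gene was called where its adjusted p, from limma with Benjamini-Hochberg adjustment over all 10574 genes, was under 0.05. Of all genes tested, 32.4% were called, 12.4% higher and 20% lower, so calls among the splicing factors ran mainly upward where calls over all genes ran mainly downward. The median log2 fold change of the 48 was 0.27, against -0.06 over all genes. In 33 of the 48, Kbr was above control in each of the 3 pairs of like-numbered arrays, as in 3502 of all 10574 genes. All Kbr arrays were above all control arrays in 23 of the 48 and below them in 3, against 22.4% and 29.2% of all genes. Only SNRNP48 was called higher by at least 2-fold and no gene of the 48 lower by that much, sizes that 1.22% and 6.02% of all genes reached. The count higher fell to 9 without control 24 h replicate 1, and with the replicate number as a block it was 27 higher and 2 lower (1963 and 3109 of all genes). In such bulk samples, less RNA per cell and fewer cells of a kind cannot be told apart.

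At 48 h, 28 of the 48 were called higher and 4 lower, against 26.9% and 32.8% of all genes (59.6% either way). All Kbr arrays were above all control arrays in 30 and below them in 3, against 28.6% and 34.2%. The median log2 fold change was 0.53, against -0.06 over all genes. SNRNP48, SNRNP200, TRA2A, SNRNP70, SF3B4 and CLK3 were higher by at least 2-fold (6 of 48, against 7.92% of all genes). SNRNP35 was lower by at least 2-fold (1 of 48, against 15.5%). Among those higher, SNRNP200 rests on 1 probe set near the filter. TRA2A was at 0.07 (limma adjusted p = 0.783) with the mean over its probe sets, and its other tested probe sets did not pass. The count higher was 30 without Kbr 48 h replicate 3, the array that stood apart. With the replicate block the counts were 34 higher and 7 lower (3310 and 4028 of all genes). The 4 called lower (SNRNP35, SRSF6, HNRNPA3 and SF3B3) became 2 without Kbr 48 h replicate 2 or without control 48 h replicate 1.

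Of the 48, 15 were called higher at both times (11.7% of all genes were) and 1, SNRNP35, was called lower at both (18.5% of all genes were). HNRNPA0 was called higher at 24 h and not at 48 h, 13 were called higher at 48 h and not at 24 h, and 15 were called at neither time.

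**Figure D1:**
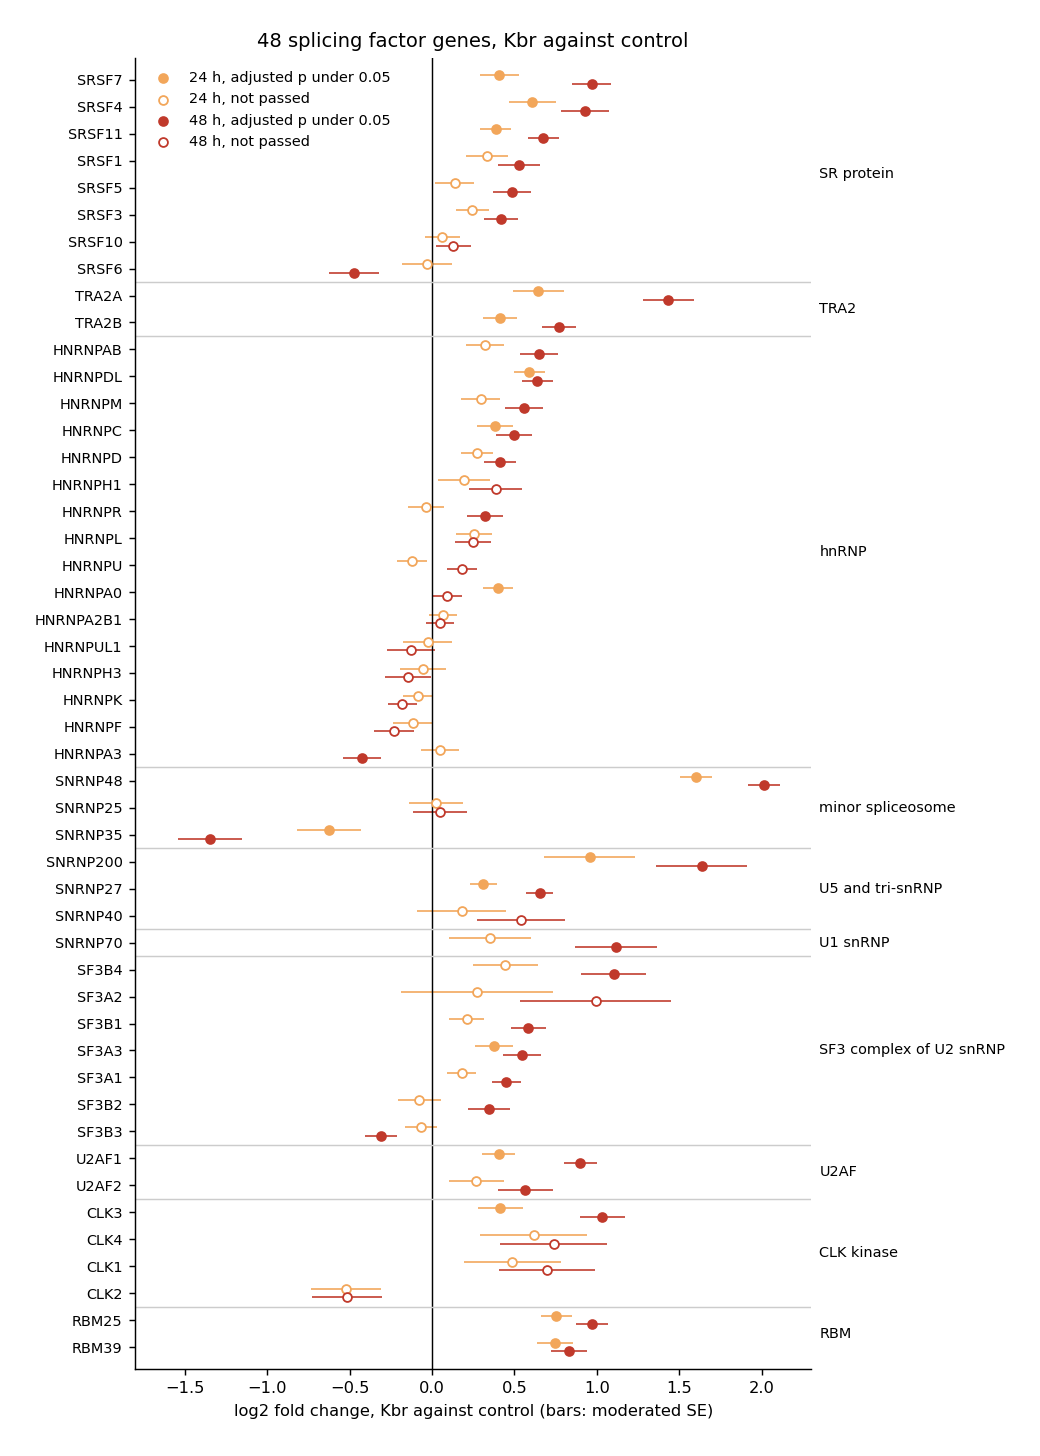
Log2 fold change of Kbr against control for the 48 splicing factor genes at 24 h (orange) and 48 h (red), ordered within each family by the change at 48 h; bars are the moderated standard error from limma, and filled points had an adjusted p under 0.05. Filled points lie mainly to the right of 0, with SNRNP48 farthest right (2.01 at 48 h) and SNRNP35 farthest left (-1.34).

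The proteins of the minor spliceosome went in different directions. SNRNP48, a protein of the U11 snRNP that contacts the 5′ splice site of minor introns, had the largest rise of all 48 genes at both times. Its values in replicates 1 to 3 were 7.16, 7.12 and 7.35 in control 24 h and 8.87, 8.81 and 8.77 in Kbr 24 h. At 48 h they were 7.05, 7.11 and 7.28 in control and 9.16, 9.19 and 9.12 in Kbr. No Kbr array came near a control array. Kbr exceeded control by 1.60 (SE 0.10, limma adjusted p = 5.55e-06) at 24 h and 2.01 (SE 0.10, adjusted p = 3.13e-07) at 48 h. Its second probe set (226263_at) was also called higher, by 0.86 at 24 h and 0.99 at 48 h.

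SNRNP35, another protein of the U11/U12 particle, fell at both times. Its values were 7.44, 7.39 and 7.03 in control 24 h and 6.79, 6.83 and 6.36 in Kbr 24 h. At 48 h control read 7.18, 7.39 and 7.41, and Kbr read 5.59, 6.04 and 6.32. Groups did not overlap at either time, and the 3 Kbr 48 h arrays were the lowest of the 12. The fall was 0.63 on the log2 scale at 24 h (log2 fold change -0.63, SE 0.19, limma adjusted p = 0.0305) and 1.34 at 48 h (log2 fold change -1.34, SE 0.19, adjusted p = 0.00015). The call at 24 h was lost without Kbr 24 h replicate 3, control 24 h replicate 1 or control 24 h replicate 2 (adjusted p 0.0868 to 0.114), and the gene rests on 1 probe set.

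SNRNP25, which binds the same particle, did not pass the test at either time (log2 fold change 0.02, SE 0.16, at 24 h and 0.05, SE 0.16, at 48 h). Its mean was lower at 48 h than at 24 h in each of the arms: control read 11.52, 11.44 and 11.68 at 24 h and 10.98, 10.91 and 11.28 at 48 h, and Kbr read 11.50, 11.51 and 11.71, then 10.90, 10.92 and 11.49. The control change over time, -0.49, had an adjusted p of 0.114, and 0.00802 with the replicate block. Among 4 other tested genes of the minor spliceosome, ZCRB1 (-0.66) and RNPC3 (-0.86) fell at 48 h and ZMAT5 rose (0.95). PDCD7 was at 0.15 (adjusted p = 0.554).

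**Figure D2:**
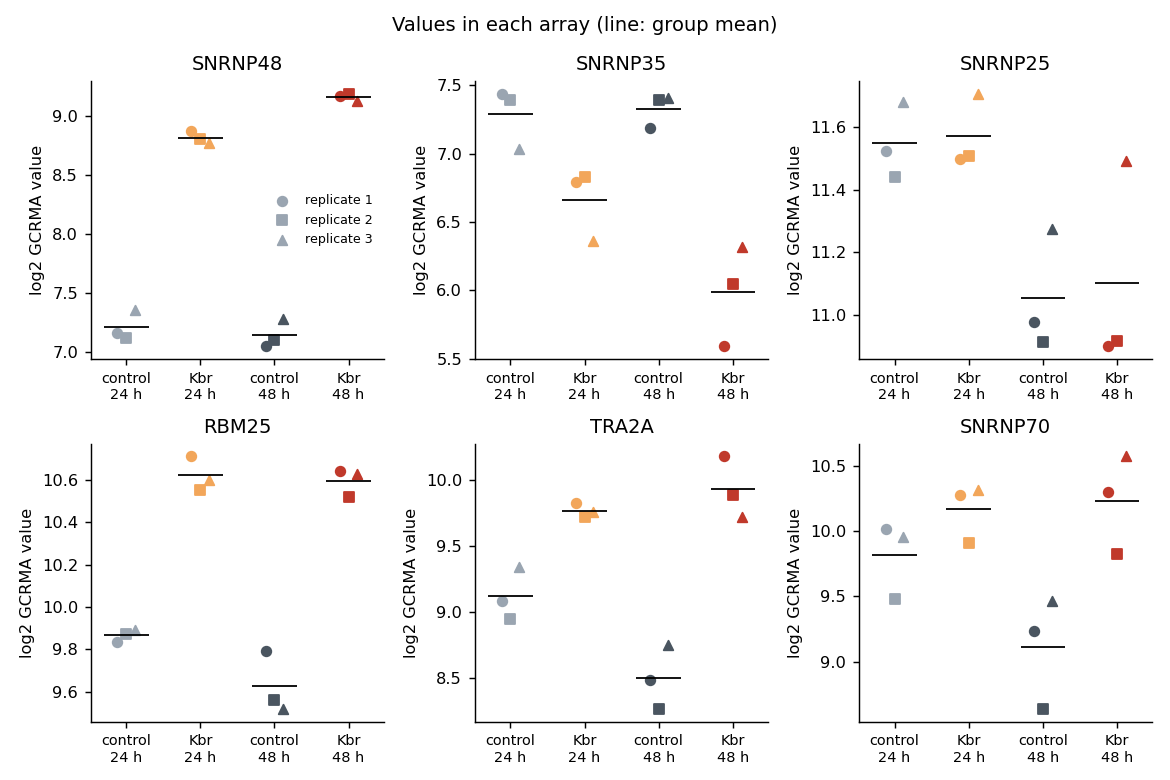
Log2 GCRMA value in each of the 12 arrays for 6 of the genes, by group, with a symbol for each replicate number and a line at the group mean; the vertical axes differ and do not start at 0. For SNRNP48, RBM25 and TRA2A the Kbr points lie above the control points of that time, for SNRNP35 below, for SNRNP25 the 48 h means are below the 24 h means in both arms, and for SNRNP70 replicate 2 is the lowest in each group.

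Among the core snRNP proteins, SNRNP200, the helicase that unwinds U4 from U6 RNA, rose at both times on its only single-gene probe set. Its values were 4.58, 5.59 and 4.85 in control 24 h and 5.85, 6.35 and 5.68 in Kbr 24 h, then 5.24, 4.56 and 4.72 in control 48 h and 6.64, 6.58 and 6.20 in Kbr 48 h. The groups did not overlap at either time, although control 24 h replicate 2 came close to the lowest Kbr array. The rise was 0.96 (SE 0.28, limma adjusted p = 0.0222) at 24 h and 1.63 (SE 0.28, adjusted p = 0.000426) at 48 h. The 24 h call was lost without Kbr 24 h replicate 2, control 24 h replicate 1 or control 24 h replicate 3 (adjusted p 0.0624 to 0.0925). This gene rests on 232931_at, a probe set near the filter, because its other probe sets name a further gene.

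SNRNP27 of the tri-snRNP rose by 0.31 (SE 0.08, adjusted p = 0.0153) at 24 h and 0.65 (SE 0.08, adjusted p = 6.08e-05) at 48 h, with each of its tested probe sets called higher at both times; the 24 h call was lost without control 24 h replicate 1 (adjusted p = 0.062). SNRNP40 of U5 snRNP did not pass at 24 h (0.18, SE 0.27) or at 48 h (0.54, SE 0.27, adjusted p = 0.105, or 0.00177 with the replicate block).

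SNRNP70, the U1 protein that contacts SR proteins, was called at 48 h only by the test at each time. Its values were 10.01, 9.48 and 9.96 in control 24 h and 10.27, 9.91 and 10.32 in Kbr 24 h. At 48 h they were 9.24, 8.64 and 9.46 in control and 10.30, 9.82 and 10.57 in Kbr. Replicate 2 was the lowest in each of the 4 groups. The log2 fold change was 0.35 at 24 h (SE 0.25, limma adjusted p = 0.305, or 0.0146 with the block) and 1.12 at 48 h (SE 0.25, adjusted p = 0.00253). From 24 h to 48 h the control mean changed by -0.70 and the Kbr mean by 0.06. The control change had an adjusted p of 0.133, and 0.00245 with the block.

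Of the 7 proteins of the SF3 complex, which holds U2 snRNP on the branch point, 1 rose at 24 h (14.3%, against 12.4% of all genes). At 48 h 5 rose (71.4%, against 26.9% of all genes) and 1 fell (14.3%, against 32.8%). SF3B4 rose most at 48 h, by 1.10 (SE 0.20, adjusted p = 0.000655). SF3B1, the branch point protein often mutated in blood cancers, rose at 48 h by 0.58 (SE 0.11, adjusted p = 0.000697), and 4 of its 5 tested probe sets were called higher. With the block SF3B1 (adjusted p = 0.0389) and SF3B4 (adjusted p = 0.0154) passed as higher at 24 h too. SF3A3 rose at 24 h (0.37) and 48 h (0.54), SF3A1 (0.45) and SF3B2 (0.34) at 48 h. The SF3A3 call at 24 h was lost without Kbr 24 h replicate 1 or 3 or control 24 h replicate 1 or 2 (adjusted p 0.0808 to 0.104). That of SF3B2 at 48 h was lost without any of the Kbr 48 h arrays, Kbr 24 h replicate 3 or control 48 h replicate 2 (adjusted p 0.051 to 0.153). SF3A2 varied widely between arrays (0.99, SE 0.46, at 48 h, adjusted p = 0.084, or 0.000488 with the block).

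SF3B3 was the member of the complex called lower at 48 h. Its values were 10.95, 10.82 and 10.77 in control 24 h, 10.82, 10.83 and 10.69 in Kbr 24 h, 10.92, 10.65 and 10.77 in control 48 h and 10.51, 10.44 and 10.47 in Kbr 48 h. The 3 Kbr 48 h arrays were below the other 9. Kbr against control was -0.31 (SE 0.10, limma adjusted p = 0.0163), and the call was lost when replicate 2 of Kbr 48 h or replicate 1 of control 48 h was left out (adjusted p 0.0509 and 0.0633). Its other tested probe set, which read near the filter in control, was called the other way.

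U2AF1, which reads the AG at the 3′ splice site, rose by 0.41 (SE 0.10, adjusted p = 0.0112) at 24 h and 0.90 (SE 0.10, adjusted p = 2.67e-05) at 48 h, and each of its 3 tested probe sets was called higher at 48 h. Its 24 h call was lost without control 24 h replicate 1 (adjusted p = 0.051). U2AF2, which binds the pyrimidine tract beside it, rose by 0.57 (SE 0.17, adjusted p = 0.0127) at 48 h, a call lost without control 48 h replicate 2 (adjusted p = 0.0534). Its change at 24 h was 0.27 (adjusted p = 0.241; blocked, 0.00878).

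RBM25, which acts with U1 snRNP in splice site choice, rose at both times. Its values were 9.83, 9.87 and 9.89 in control 24 h and 10.71, 10.55 and 10.60 in Kbr 24 h, then 9.79, 9.56 and 9.52 in control 48 h and 10.64, 10.52 and 10.63 in Kbr 48 h. Each Kbr array was above all 6 control arrays. RBM25 rose by 0.75 (SE 0.10, limma adjusted p = 0.000381) at 24 h and 0.97 (SE 0.10, adjusted p = 1.16e-05) at 48 h, and its 5 tested probe sets were each called higher at both times.

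RBM39, a relative of U2AF2, read 11.83, 12.05 and 11.98 in control 24 h and 12.78, 12.75 and 12.58 in Kbr 24 h. At 48 h it read 12.03, 12.05 and 11.80 in control and 12.83, 12.88 and 12.66 in Kbr. The groups did not overlap at either time. The log2 fold change was 0.75 (SE 0.11, limma adjusted p = 0.000776) at 24 h and 0.83 (SE 0.11, adjusted p = 7.67e-05) at 48 h, a difference of 0.08 (SE 0.15, adjusted p = 0.787).

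Of the 8 measured SR proteins, 3 rose at 24 h (37.5%, against 12.4% of all genes). At 48 h 6 rose (75%, against 26.9% of all genes) and 1 fell (12.5%, against 32.8%). SRSF4 rose by 0.61 and 0.93 at the respective times, SRSF7 by 0.41 and 0.97, and SRSF11 by 0.39 and 0.68. The other tested probe sets of SRSF4 passed at neither time (239512_at at -0.28 and -0.31, 242837_at at -0.09 and -0.25), and with the mean over probe sets both its calls were lost (0.06 with adjusted p = 0.725, and 0.04 with adjusted p = 0.79). SRSF1, SRSF3 and SRSF5 rose at 48 h by 0.53, 0.42 and 0.49. With the block SRSF1 (adjusted p = 0.0148) and SRSF3 (adjusted p = 0.0256) passed at 24 h too. The 24 h call of SRSF7 was lost without Kbr 24 h replicate 2, control 24 h replicate 1 or control 24 h replicate 3 (adjusted p 0.0542 to 0.0951). SRSF10, a splicing repressor once it is dephosphorylated in stressed cells, did not pass at either time (0.06, SE 0.10, and 0.13, SE 0.10), but its probe sets 204299_at (1.27), 213594_x_at (0.92) and 210178_x_at (0.61) were called higher at 48 h in the fit over probe sets.

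SRSF6 was the SR protein called lower at 48 h. Its values were 11.24, 11.11 and 11.22 in control 24 h and 11.24, 11.00 and 11.23 in Kbr 24 h, then 11.54, 11.39 and 10.96 in control 48 h and 11.03, 10.72 and 10.72 in Kbr 48 h. The groups overlapped at both times, since control 48 h replicate 3 was below Kbr 48 h replicate 1. The log2 fold change at 48 h was -0.47 (SE 0.15, limma adjusted p = 0.0196), lost without Kbr 48 h replicate 2 or 3 or control 48 h replicate 1 or 2 (adjusted p 0.0567 to 0.0814).

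TRA2A and TRA2B, SR-like activators of exon inclusion, rose at both times. TRA2A read 9.08, 8.95 and 9.34 in control 24 h and 9.83, 9.72 and 9.75 in Kbr 24 h. At 48 h it read 8.49, 8.26 and 8.74 in control and 10.18, 9.89 and 9.72 in Kbr. Control was lower at 48 h than at 24 h in each array while Kbr kept within the range of 9.72 to 10.18. The rise of TRA2A was 0.64 (SE 0.16, limma adjusted p = 0.0096) at 24 h and 1.43 (SE 0.16, adjusted p = 2.12e-05) at 48 h. The other 2 tested probe sets of TRA2A passed at neither time (-0.41 and -0.12 at 24 h, -0.45 and -0.08 at 48 h). TRA2B rose by 0.41 (adjusted p = 0.0108) and 0.77 (adjusted p = 7.78e-05), on each of its tested probe sets.

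Of the 16 measured hnRNP proteins, 3 rose at 24 h (18.75%, against 12.4% of all genes). At 48 h 6 rose (37.5%, against 26.9% of all genes) and 1 fell (6.25%, against 32.8%). HNRNPDL rose by 0.59 (adjusted p = 0.00124) and 0.64 (adjusted p = 0.000178). With unsuffixed probe sets its 48 h call was lost (209068_at, 0.01, adjusted p = 0.95), while 1554678_s_at (0.94) and 201993_x_at (0.62) were called higher there and 212454_x_at was at -0.10. HNRNPC, which coats long stretches of uridine, rose by 0.38 (adjusted p = 0.0204) and 0.50 (adjusted p = 0.00231). HNRNPA0 read 11.45, 11.41 and 11.46 in control 24 h and 11.88, 11.80 and 11.84 in Kbr 24 h, but 11.36, 11.35 and 11.10 against 11.39, 11.37 and 11.33 at 48 h. It rose at 24 h (0.40, adjusted p = 0.00692) and was at 0.09 (adjusted p = 0.403) at 48 h, a difference between the times of -0.31 (SE 0.13) that did not pass (adjusted p = 0.164). HNRNPAB (0.65), HNRNPM (0.56), HNRNPD (0.41) and HNRNPR (0.32) rose at 48 h only by the test at each time. HNRNPAB, HNRNPD and HNRNPM passed at 24 h with the block (adjusted p 0.00648, 0.0187 and 0.00961). The HNRNPC call at 24 h was lost without Kbr 24 h replicate 1 or 2 or control 24 h replicate 1 or 2 (adjusted p 0.0503 to 0.0766), and that of HNRNPR at 48 h without Kbr 48 h replicate 1 or 2 or control 48 h replicate 2 or 3 (adjusted p 0.0605 to 0.102).

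HNRNPA3 fell at 48 h. Its values were 11.56, 11.51 and 11.46 in control 24 h and 11.72, 11.49 and 11.47 in Kbr 24 h, then 11.67, 11.66 and 11.42 in control 48 h and 11.34, 11.05 and 11.08 in Kbr 48 h. The 3 Kbr 48 h arrays were the lowest of the 12. Kbr differed from control by 0.05 at 24 h and -0.43 (SE 0.12, limma adjusted p = 0.00801) at 48 h. Its other tested probe sets were not called at 48 h (211930_at at -0.18, adjusted p = 0.24, and 211932_at at 0.09, adjusted p = 0.493).

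The remaining 8 hnRNP genes passed at neither time on the probe set that stands for the gene, with changes between -0.23 and 0.39. HNRNPA2B1 was at 0.07 (SE 0.08) and 0.05 (SE 0.08), but its probe set 225107_at was called higher at both times (0.82, adjusted p = 0.00626, and 0.97, adjusted p = 0.000717) and 225932_s_at at 48 h (0.31, adjusted p = 0.0458). HNRNPH3 likewise had 207127_s_at (0.49), 210110_x_at (0.39) and 210588_x_at (0.37) called higher at 48 h. HNRNPF and HNRNPH1, which bind runs of G, were at -0.23 (adjusted p = 0.125) and 0.39 (adjusted p = 0.0564) at 48 h, and with the block passed in opposite directions (adjusted p 0.0379 and 0.00394). HNRNPK, which binds runs of C, stood at -0.18 (adjusted p = 0.105; blocked, 0.0364), and HNRNPL, which binds CA repeats, at 0.25 at both times (with the block adjusted p = 0.0415 at 24 h and 0.0317 at 48 h).

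Of the 4 CLK kinases only CLK3 passed, rising by 0.41 (SE 0.14, adjusted p = 0.0385) at 24 h and 1.03 (SE 0.14, adjusted p = 8.04e-05) at 48 h. The share higher was thus 25% at each time, against 12.4% of all genes at 24 h and 26.9% at 48 h. Its 24 h call was lost without Kbr 24 h replicate 1 or 3, control 24 h replicate 1 or 2 or Kbr 48 h replicate 2 (adjusted p 0.052 to 0.132). CLK1 and CLK4 varied widely between replicates, with standard errors of 0.29 and 0.32. CLK1 was at 0.49 and 0.70 (adjusted p = 0.0585 at 48 h) and CLK4 at 0.62 and 0.74 (adjusted p = 0.0702 at 48 h). CLK2 was at -0.52 and -0.51 (adjusted p 0.0841 and 0.0569), the opposite sign to the other 3. With the block CLK2 passed as lower at both times (adjusted p 0.00566 and 0.00322), CLK4 as higher at both (adjusted p 0.00906 and 0.00194) and CLK1 as higher at 48 h (adjusted p = 0.0175).

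**Figure D3:**
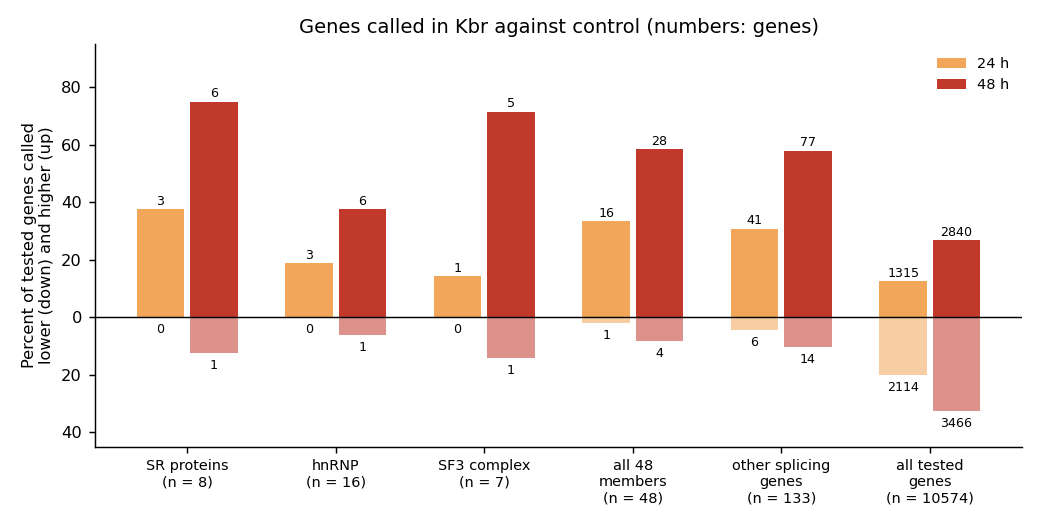
Percent of tested genes called higher (up) and lower (down) in Kbr against control at 24 h (orange) and 48 h (red) in the SR, hnRNP and SF3 groups, all 48 splicing factors, 133 other splicing genes and all 10574 tested genes; the numbers are genes. At 48 h 28 of 48 splicing factors and 77 of 133 other splicing genes were called higher, against 2840 of 10574 genes.

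Where a gene has several single-gene probe sets, the probe sets were compared in a fit over all 19345 tested single-gene probe sets. The 48 genes had 163 such probe sets, of which 134 were tested. At 24 h 45 were called higher and 3 lower (11.7% and 15.3% of all probe sets), and at 48 h 78 higher and 14 lower (27.3% and 28.7%). Of the 35 genes with several tested probe sets, 4 at 24 h (RBM25, SNRNP27, SNRNP48 and TRA2B) and 8 at 48 h (these and HNRNPM, SRSF5, U2AF1 and U2AF2) had all of them called the same way, as had 680 and 1748 of the 5192 such genes among all genes.

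Probe sets of a gene were called in opposite directions in 1 of the 35 genes at 24 h, HNRNPD, and in 10 of the 35 (28.6%) at 48 h. Over all 5192 genes with several tested probe sets the shares were 0.25% and 4.82%. Genes with more probe sets have more chances to disagree, so shares were also taken by number. At 48 h opposite calls were found in 2 of 10 splicing factors with 2 tested probe sets (2.37% of all such genes), 3 of 13 with 3 (5.05%) and 5 of 12 with 4 or more (13.0%). The splicing factors also read higher than other genes, with a median mean level of 11.39 against 8.47 over all genes tested. Neither the shares of opposite calls nor those of genes called were matched for level. The 10 genes were SRSF1, SRSF6, SRSF7, SRSF11, HNRNPD, HNRNPR, HNRNPU, SF3A1, SF3B3 and RBM39. Of the 14 probe sets lower at 48 h, 10 had the plain suffix _at, which Affymetrix gives to probes unique to a transcript, as had 28 of the 78 that were higher and 58 of all 134 tested. Suffixes _s_at and _x_at stand for probes shared by several transcripts or open to cross-hybridisation. The parts of the transcripts that each probe set reads were not analysed here.

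**Figure D4:**
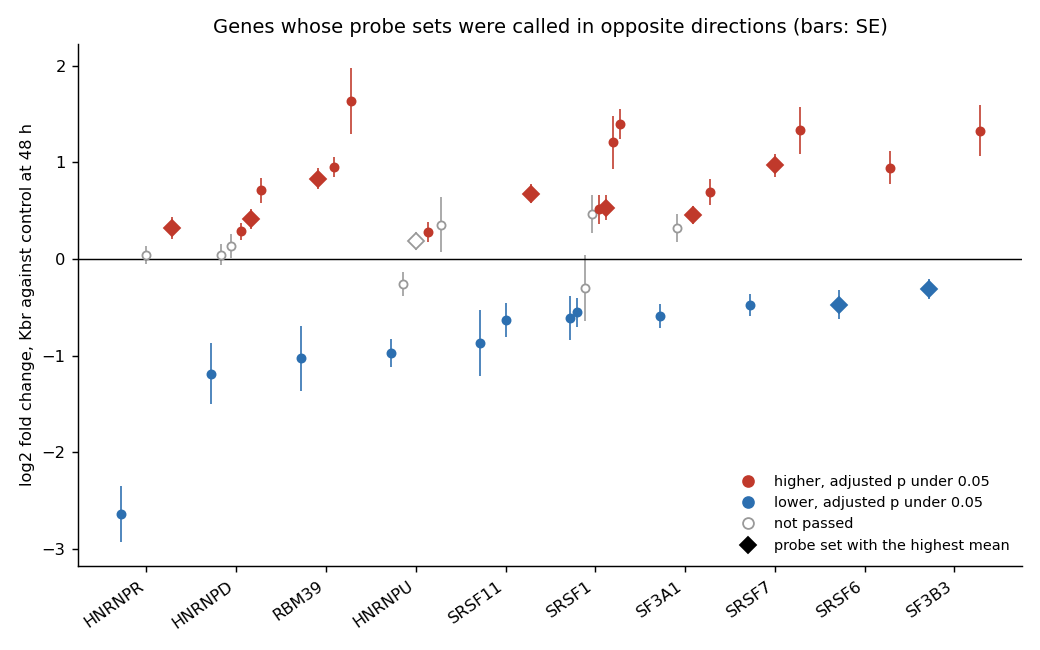
Log2 fold change of Kbr against control at 48 h for each tested probe set of the 10 genes with opposite calls; bars are the moderated standard error, colours show calls and diamonds mark the probe set with the highest mean, which stands for the gene. HNRNPR spans -2.64 to 0.32, where 2 of the 3 Kbr values of the lowest probe set lie below the filter level of 4, and in SRSF6 and SF3B3 the diamond is the probe set called lower.

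In HNRNPR, probe set 232004_at read 6.55, 6.04 and 6.11 in control 48 h and 4.15, 3.38 and 3.27 in Kbr 48 h, a log2 fold change of -2.64 (SE 0.29, limma adjusted p = 2.94e-05). Of the 3 Kbr values 2 are below the filter level of 4, so the size of this difference is uncertain. Probe set 208766_s_at, which stands for the gene, read 11.82, 11.77 and 11.78 in control and 12.28, 12.11 and 11.92 in Kbr (0.32, adjusted p = 0.0319). The groups separated in opposite directions, and the third probe set, 208765_s_at, was at 0.04 (adjusted p = 0.735).

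HNRNPD, a protein also known for steering AU-rich mRNAs to decay, was split at both times. Probe set 213359_at read 8.34, 8.50 and 7.50 in control 24 h against 7.48, 7.07 and 6.52 in Kbr 24 h, and 8.56, 8.36 and 7.74 against 7.28, 6.78 and 7.05 at 48 h. Probe set 221480_at read 9.98, 9.78 and 10.16 against 10.60, 10.67 and 10.65 at 24 h, and 9.36, 9.73 and 9.55 against 10.18, 10.20 and 10.40 at 48 h. The first was lower under Kbr by a similar amount at both times (-1.09 and -1.19, adjusted p 0.0262 and 0.00804), and the second higher (0.66 and 0.71, adjusted p 0.00383 and 0.000751).

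HNRNPU, a nuclear scaffold protein, did not pass as a gene, but 235603_at read 7.03, 7.61 and 7.26 in control 48 h and 6.38, 6.37 and 6.22 in Kbr 48 h (-0.97, adjusted p = 0.000221). Its probe set 200593_s_at read 11.58, 11.49 and 11.66 in control and 11.81, 11.83 and 11.92 in Kbr (0.28, adjusted p = 0.0335). At 24 h neither of these probe sets was called.

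Among the SR proteins, SRSF7 was called higher on 214141_x_at, with 11.60, 11.82 and 11.91 in control 48 h and 12.79, 12.80 and 12.65 in Kbr 48 h (0.97, adjusted p = 6.9e-05). It was called lower on 201129_at, with 9.51, 9.57 and 9.44 against 9.22, 9.06 and 8.81 (-0.48, adjusted p = 0.00388). In each pair of groups the 3 arrays of one lay outside the range of the other.

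SRSF11 read 12.75, 12.61 and 12.61 in control 48 h and 13.45, 13.23 and 13.31 in Kbr 48 h on 200686_s_at (0.68, adjusted p = 0.000163). On 200685_at it read 9.15, 9.56 and 8.97 in control and 8.38, 8.58 and 8.83 in Kbr (-0.63, adjusted p = 0.0116), and 213742_at was also called lower (-0.87, adjusted p = 0.0499). At 24 h 200685_at stood at 0.30 (adjusted p = 0.246).

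SRSF6 read 7.78, 7.99 and 8.13 in control 48 h and 8.85, 8.80 and 9.09 in Kbr 48 h on 206108_s_at (0.94, adjusted p = 0.000816). That probe set was also called higher at 24 h (0.74, adjusted p = 0.0102), against the fall at 48 h of the probe set that stands for the gene. For SRSF6 the direction of the call therefore depends on the probe set.

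SRSF1 had 8 tested probe sets, of which 4 were called higher and 2 lower at 48 h. Probe set 227164_at read 7.35, 7.45 and 7.52 in control 48 h and 8.78, 8.85 and 8.88 in Kbr 48 h (1.40, adjusted p = 2.9e-05). Probe set 226419_s_at read 8.80, 8.91 and 8.33 in control and 7.93, 8.10 and 8.17 in Kbr (-0.61, adjusted p = 0.0391). Neither pair of groups overlapped, and 211784_s_at, which stands for the gene, rose by 0.53.

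In the SF3 complex, SF3A1 was called higher on 216457_s_at, with 8.77, 8.75 and 8.83 in control 48 h and 9.64, 9.38 and 9.41 in Kbr 48 h (0.69, adjusted p = 0.00104). It was called lower on 227516_at, with 7.47, 7.40 and 7.32 against 6.74, 6.64 and 7.03 (-0.59, adjusted p = 0.00203). SF3B3 was called higher on 200688_at, with 4.26, 4.31 and 4.39 in control 48 h and 5.75, 5.63 and 5.55 in Kbr 48 h (1.33, adjusted p = 0.00148), against the lower call on the probe set that stands for the gene (-0.31). The control values of 200688_at are near the filter level of 4, so the size of its rise is uncertain.

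RBM39 rose on 3 of its 4 tested probe sets at 48 h, between 0.83 and 1.63. The fourth, 227223_at, read 8.07, 8.38 and 7.42 in control 48 h and 6.73, 7.26 and 6.81 in Kbr 48 h (-1.03, adjusted p = 0.022). At 24 h that probe set was at -0.31 (adjusted p = 0.521).

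The change of the Kbr effect between the times was tested as the difference of the Kbr effects, 48 h minus 24 h. By limma none of the 48 genes passed (5.58% of all genes did, 2.09% higher and 3.49% lower), while 16 had an unadjusted p under 0.05, as had 2585 of all 10574. With the block 10 passed as higher and 1 as lower, and without Kbr 48 h replicate 3, the array that stood apart, 4 and 1. Over all genes those counts were 934 higher and 1206 lower with the block, and 818 and 689 without that array. The log2 fold change was larger at 48 h than at 24 h in 37 of the 48, with a median difference of 0.21, against 5401 of 10574 and 0.01 over all genes. The largest differences were 0.79 for TRA2A (SE 0.22, adjusted p = 0.0596, or 0.0264 with the block) and 0.77 for SNRNP70 (SE 0.35, adjusted p = 0.208, or 0.00838 with the block).

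Control cultures at 48 h were set against those at 24 h. Only TRA2A was called, lower by 0.63 on the log2 scale (log2 change -0.63, SE 0.16, limma adjusted p = 0.0499), against 4.03% of all genes called, 1.73% higher and 2.3% lower. That call was lost without any 1 of the 6 control arrays other than control 48 h replicate 3, and without any Kbr 24 h array or Kbr 48 h replicate 2 (adjusted p 0.0539 to 0.209). The control mean was lower at 48 h in 41 of the 48 genes (5698 of all 10574), with a median change of -0.19 against -0.03 over all genes, and 18 had an unadjusted p under 0.05 (2318 of all 10574). In 17 of the 48 the control 48 h arrays were all below the control 24 h arrays and in 0 all above (14.6% and 12.3% of all genes). With the block 14 were called lower and 1, CLK4, higher, against 1290 and 912 of all genes.

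In Kbr cultures the median change over the same interval was 0.00, with 23 of the 48 lower and 25 higher at 48 h. All 13 genes called higher at 48 h and not at 24 h had a lower control mean at 48 h than at 24 h, and 8 of them had a higher Kbr mean. The Kbr effect and the change in controls share the control arrays, so the values are given side by side and their relation was not tested. For SRSF7 the control changed by -0.47 and Kbr by 0.09, and for SF3B4 the control changed by -0.51 and Kbr by 0.15. For SNRNP200 the control changed by -0.17 and Kbr by 0.51.

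**Figure D5:**
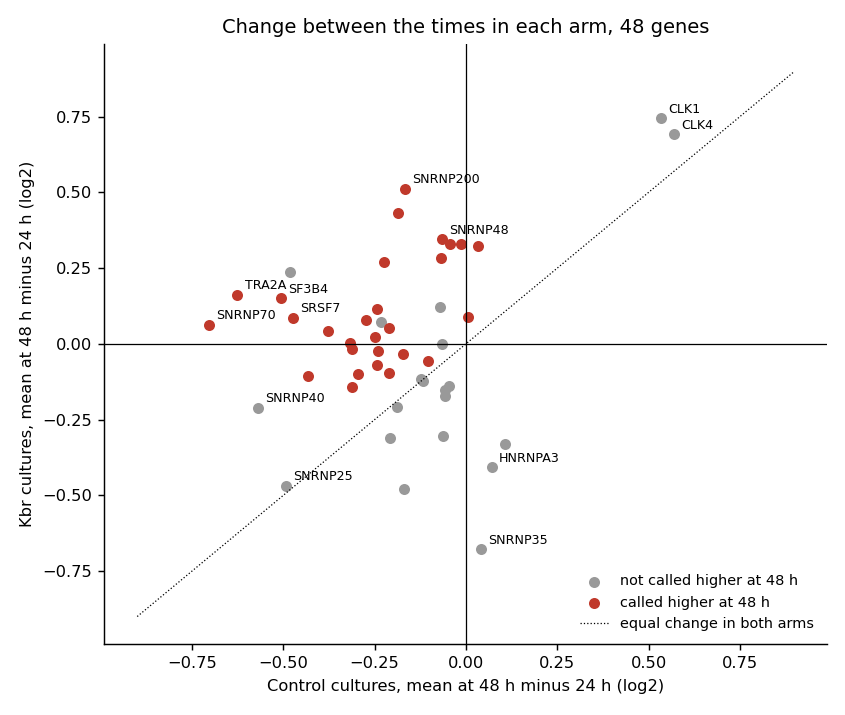
Change of the group mean from 24 h to 48 h in control cultures (horizontal) and Kbr cultures (vertical), log2, for the 48 genes; red points were called higher under Kbr at 48 h and the dotted line marks an equal change in both arms. Most points lie left of 0 and above the line (41 of 48 have a lower control mean at 48 h), with CLK1 and CLK4 farthest to the upper right.

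The wider splicing machinery was described with 150 further genes, of which 133 were tested. At 24 h 41 were called higher and 6 lower (30.8% and 4.51%, against 12.4% and 20% of all genes). At 48 h the counts were 77 and 14 (57.9% and 10.5%, against 26.9% and 32.8%). The medians were 0.21 and 0.42, against -0.06 over all genes at each time. The largest calls at 24 h were rises of SUGP1 (0.93), LUC7L3 (0.85) and UPF1 (0.82), the helicase of nonsense-mediated decay. The largest falls were CIRBP (-1.19), the cold-inducible RNA-binding protein, ESRP1 (-0.76), an epithelial splicing regulator, and ZCRB1 (-0.48). The ESRP1 call was lost without Kbr 24 h replicate 1 or 2 or control 24 h replicate 2 or 3 (adjusted p 0.0503 to 0.0781). At 48 h the largest rises were PRPF3 of the tri-snRNP (1.77), SNRPA1 of U2 snRNP (1.58) and PRPF39 (1.49). The largest falls were CIRBP (-1.47), TIA1 (-1.11) and ESRP1 (-0.99). The Kbr means of ESRP1 were 4.09 at 24 h and 4.17 at 48 h, near the filter level of 4, so the size of its falls is uncertain.

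By group, 20 of 25 genes of the Prp19 and catalytic complexes rose at 48 h and none was called lower (median 0.65). Over all genes 26.9% were called higher and 32.8% lower at 48 h, and 12.4% and 20% at 24 h. Of 14 further tri-snRNP and U5 genes 9 rose, as did 9 of 12 further U2-linked genes, and none in these groups was called lower. Of 7 exon junction complex genes, which mark spliced mRNA, 6 rose at both times, among them EIF4A3 (0.59 and 1.02), RBM8A (0.69 and 1.34) and SAP18 (0.54 and 1.02), and PNN fell at 48 h (-0.35). Sm and LSm genes were mixed, with 10 of 19 higher and 3 lower. Further SR and hnRNP genes had 4 of 13 higher and 3 lower (30.8% and 23.1%), close to the shares of all genes. SR kinases had 3 of 5 higher, and nonsense-mediated decay genes 4 of 5. Other regulators had 11 of 29 higher and 5 lower (37.9% and 17.2%).

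The genes whose values over the 12 arrays were most like those of SNRNP48 were RAB21 (Pearson r = 0.999), HSPH1 (0.995), PALS2 (0.994) and PLEKHB2 (0.992). The 12 arrays fall into Kbr and control groups, so these correlations mostly reflect that split and are a description. HSPH1, a chaperone of the HSP110 family, was at 1.62 at 24 h and 2.26 at 48 h, and RAB21 at 0.88 and 1.08.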

How the data were processed

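The labels' protocols give column-purified total RNA of 12 HK-2 cultures, turned into biotin-labelled cRNA for Affymetrix arrays. The deposited values are log2 intensities that the authors made with GCRMA, per the submitters' processing notes; its version and background settings are not given in the sources used here. Of 54675 probe sets, 41091 name 1 gene symbol, 1801 several and 11721 none, with 62 array controls; probe sets with several genes were left out. No symbol needed updating, and the table has 0 missing values.

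Where a gene had several single-gene probe sets, the one highest in mean over the 12 arrays stood for it, and a gene was tested where log2 exceeded 4 in at least 3 arrays. limma 3.58.1 (lmFit and eBayes, R 4.3.3) was fitted over all 12 arrays with the 4 groups (8 residual degrees of freedom, 2.87 prior), with Benjamini-Hochberg adjustment over 10574 genes and a threshold of 0.05. Per-array values were given for the 4 largest rises and falls called in each comparison and for genes whose probe sets were called in opposite directions. Those of SNRNP25 and HNRNPA0 were given outside this rule. Of further splicing genes the 3 largest of each direction at each time were named, and for likeness the 4 genes with the highest Pearson r. The listed genes, the further splicing lists and the markers were chosen with earlier results of these data known.

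Deviations from group means of like-numbered arrays of different groups correlated at 0.23 to 0.63 (18 pairs), so the numbers in the sample labels pair the arrays. Those of other arrays correlated at -0.38 to 0.00 (36 pairs), a range partly set by centring on means of 3 arrays. The main fit leaves this pairing out, and the replicate block takes it in. What a number shares is not stated in the labels. On simulated data with 200 of 10574 genes changed 2-fold at 24 h, 75.5% were recovered with 11 false calls. In the arrays themselves 3429 of 10574 genes were called at 24 h, and recovery with that many changed genes was not tested. The simulated noise was independent between arrays and so held no pairing by replicate number. Recovery of changes smaller than 2-fold was not tested either. Alternatives were no filter, a filter at 6, the mean over probe sets, unsuffixed probe sets, median centring, quantile normalization, an offset of 32, only the groups compared, the replicate block, an adjusted p under 0.01 and each array left out in turn. Promoter sequences came from RefSeq. Figures were drawn with matplotlib 3.10.9.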

Additional observations from a re-analysis of the deposited data

Results flagged for a closer look

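For the splicing factors taken as genes, no difference of the Kbr effect between 48 h and 24 h passed the test in the main fit, which has no replicate block. With the block 10 passed as higher and 1 as lower, against 934 and 1206 of all genes. On the level of probe sets, 235603_at of HNRNPU passed in the fit without the block, with a difference of -0.83 (limma adjusted p = 0.0458 over all probe sets). It stood at -0.14 at 24 h and -0.97 at 48 h. Among the 133 other splicing genes 8 passed, 7 higher and 1 lower, where 5.58% of all tested genes passed (2.09% higher and 3.49% lower). The Kbr effect was larger at 48 h by 1.04 for PRPF3, 0.92 for SNRPA1, 0.68 for LUC7L, 0.67 for CDC5L, 0.66 for PPIH, 0.62 for U2SURP and 0.49 for BUD31. For TIA1, a stress granule protein that also binds introns beside weak splice sites, the fall was deeper at 48 h, with a difference of -0.70. SNRPA1, PPIH and LUC7L were also called lower in control 48 h than in control 24 h, by the same control arrays that enter the difference.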

How the results depend on the processing

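The counts of splicing factors called higher at 48 h stayed within 1.5 times under each alternative run. With the replicate block, the counts were 27 higher and 2 lower at 24 h, 7 lower at 48 h, 10 and 1 for the difference of the Kbr effect, and 1 and 14 for control over time; other splicing genes had 12 lower at 24 h and 35 and 2 for the difference, and opposite probe sets were 3 at 24 h. No Kbr call of a splicing factor was lost with the block. At an adjusted p under 0.01, splicing factors had 8 higher and 0 lower at 24 h, 2 lower at 48 h and 0 lower in control over time, and other genes 22 and 2 at 24 h and 0 and 0 for the difference. Splicing factors lower at 24 h were 0 with no filter or quantile normalization and 2 with the mean over probe sets, unsuffixed probe sets or only the groups compared. Those lower at 48 h were 7 with unsuffixed probe sets and 2 with only the groups compared. For the difference, 1 was higher with no filter and 1 with the offset. Lower in control over time were 0 with no filter, the mean, unsuffixed probe sets or only the groups compared, 2 with the filter at 6 or quantile normalization, and 3 with the offset. For other genes the difference gave 11 higher with the offset, and 0 lower with no filter, the mean, median centring or quantile normalization and 3 with unsuffixed probe sets. The cause was not tested.

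Leaving out 1 array at a time gave 9 to 18 higher and 0 to 2 lower at 24 h, 26 to 30 and 2 to 5 at 48 h, 0 to 4 and 0 to 1 for the difference, and 0 to 0 and 0 to 3 in control over time. Other genes ranged over 28 to 44 and 3 to 8, 69 to 77 and 11 to 16, and 2 to 19 and 0 to 1 in the same order. The fit to only the groups compared was not run for the difference, which uses all groups.

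The sign of some changes turned with the choice of probe set, in part to values near 0. With the mean over probe sets SRSF11 (-0.0126) and TRA2A (-0.0273) turned at 24 h, SRSF6 (0.24), SRSF11 (-0.18), HNRNPR (-0.76) and SF3B3 (0.51) at 48 h, and TRA2A (0.0185) in control over time. Of these only HNRNPR (limma adjusted p = 0.000382) and SF3B3 (adjusted p = 0.0141) passed in the turned direction, and the others did not (adjusted p 0.0835 to 0.971). With unsuffixed probe sets SRSF7 (-0.000524) and RBM39 (-0.31) turned at 24 h and did not pass (adjusted p 0.998 and 0.51). At 48 h SRSF7 (-0.48), SRSF11 (-0.63), HNRNPR (-2.64), SF3B3 (1.33) and RBM39 (-1.03) turned and passed (adjusted p 2.4e-05 to 0.0207). Of 17 calls at 24 h 5 held under each alternative other than the stricter threshold (TRA2B, HNRNPA0, HNRNPDL, SNRNP48 and RBM25), and of 32 at 48 h 19 did. For genes that rest on 1 probe set, such as SNRNP35 and SNRNP200 among the 19, the mean and unsuffixed settings return the same values. SRSF1 and SF3A1 are also among the 19, although their probe sets were called in opposite directions. The 3 arrays a group limit the precision, and probe sets near the filter are the least certain.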
